A study of Homo sapiens with 5 samples.

Results

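The thioredoxin system was described here by 10 genes, chosen by symbol from the 60623 genes of the deposited count table. They are TXN (thioredoxin), TXNRD1 and TXNRD2 (thioredoxin reductases), SRXN1 (sulfiredoxin) and PRDX1 to PRDX6 (peroxiredoxins), and all 10 had a row. The cells were HCT116, a human colorectal carcinoma line, profiled by poly(A) RNA-seq as 2 LT4-treated libraries (replicates 1 and 3) and 3 control libraries (replicates 1 to 3). LT4 is the name in the sample titles and the design text; in the series title the compound is 4-acetylantrocamol LT3. Dose, duration and the nature of the control are not in the labels. Nor do the labels say that replicates were separate cultures, so a p-value here speaks of the spread among libraries, part of which could be technical. Because the headers of the deposited table give the LT4 libraries separate groups, a shared treatment protocol for both is not stated.

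Thioredoxin is a small protein that reduces disulfides in other proteins, and thioredoxin reductase, a selenoprotein, recharges it with electrons from NADPH. Peroxiredoxins are abundant enzymes that break down hydrogen peroxide, and most of them, though not PRDX6, are recharged by thioredoxin. Sulfiredoxin rescues certain peroxiredoxins that peroxide has over-oxidised. TXNRD1 and SRXN1 are known targets of NRF2, the transcription factor that binds antioxidant response elements when cells meet oxidants or electrophiles.

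Total counts were 9840467 in LT4 replicate 1, 2281912 in LT4 replicate 3 and 11653484 to 12296916 in the controls. Mitochondrially encoded genes took 5.73% of counts in LT4 replicate 1, 9.92% in LT4 replicate 3 and 5.83% to 6.64% in the controls, so LT4 replicate 3 stood apart in depth and composition, and values with each LT4 library alone are given for the 10 members and for those related genes named below that were called with either of them. The label of an epithelial colon line was checked against marker genes. All 5 epithelial markers (EPCAM, KRT8, KRT18, KRT19 and CDH1) had at least 10 CPM (counts scaled to 1000000 per library) in each of the 5 libraries. Of 6 colon markers only CDX2 did. Leukocyte markers summed to at most 0.343 CPM in any library, with 3 of 6 at 0 throughout. Fibroblast markers summed to 14.8 and 10.1 CPM in LT4 replicates 1 and 3 and to 16.5 to 18.2 in the controls, mostly from COL1A1, with DCN at 0 throughout. Their part in the results was not tested. The counts of any 2 libraries differed by more than sampling noise (chi-square over degrees of freedom at least 5.94).

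Levels per gene length spanned 3 orders of magnitude. In TPM (the authors' length-corrected values, which sum to 1000000 per library), PRDX1 was the most abundant of the 10, at 2018 ± 27.6 TPM with LT4 (SD, n = 2) and 2191 ± 54.6 TPM in controls (SD, n = 3). PRDX5 followed, at 951 ± 28.4 TPM with LT4 and 1102 ± 64.9 TPM in controls, then PRDX2, PRDX6 and TXN. TXN averaged 245 ± 32.4 TPM with LT4 and 271 ± 20.2 TPM in controls. In the controls no neighbours in this order had overlapping values except PRDX4 (84.8 to 97.7 TPM) and PRDX3 (70.2 to 103 TPM). TXNRD1 stood eighth among the controls and sixth with LT4, where its values lay above those of PRDX4 and PRDX3. TXNRD2 averaged 8.19 ± 0.365 TPM with LT4 and 8.34 ± 0.028 TPM in controls. SRXN1 was last, at 1.33 ± 0.209 TPM with LT4 and 0.798 ± 0.262 TPM in controls.

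**Figure D1:**
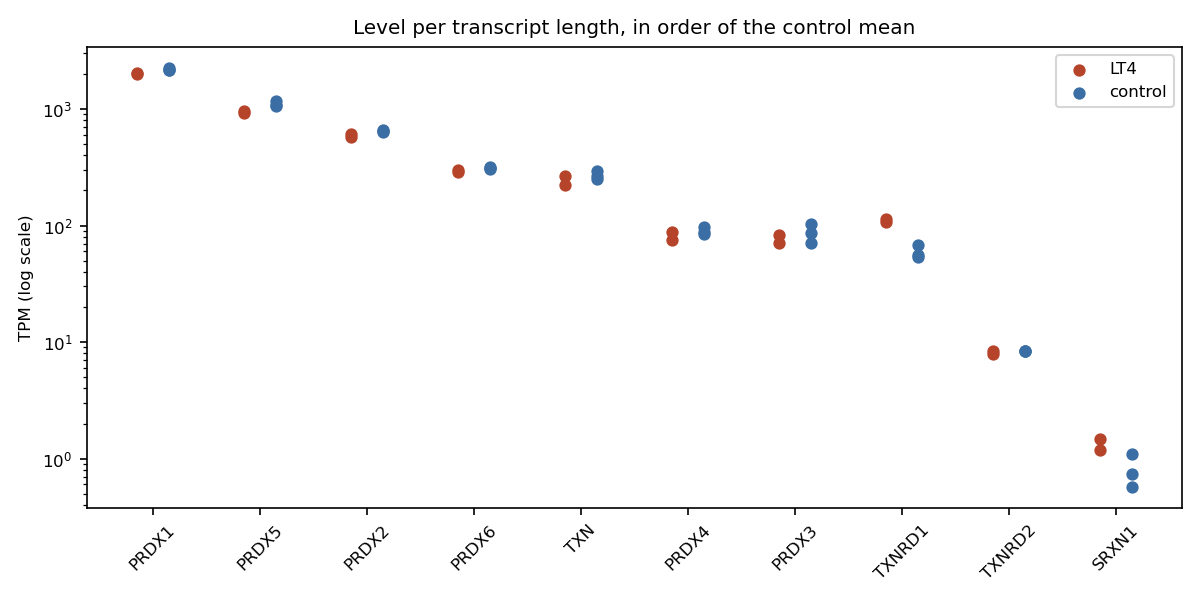
TPM of each of the 10 genes (log axis), 1 point per library, with LT4 libraries left of controls and genes in the order of the control mean. Levels run from PRDX1, with a control mean of 2191 TPM, to SRXN1, with a control mean of 0.798 TPM, and TXNRD1 is at 113 and 108 TPM with LT4, against 53.8 to 67.5 TPM in controls.

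The thioredoxin reductases are the recharging step of the system, and TXNRD1, the cytosolic enzyme, was the member that rose. It had 263 and 295 CPM (scaled between libraries with TMM factors, as are all CPM below) in LT4 replicates 1 and 3, against 167, 139 and 147 CPM in controls 1, 2 and 3. Both LT4 libraries lay above every control, with means of 279 ± 22 CPM with LT4 (SD, n = 2) and 151 ± 14.5 CPM in controls (SD, n = 3). The log2 fold change was 0.88 (SE 0.14, 95% interval 0.58 to 1.18, edgeR quasi-likelihood test, adjusted p = 0.024), a fold change of 1.84 with an interval of 1.50 to 2.27. In bulk RNA, a change in how many cells make a transcript and a change in the amount per cell cannot be told apart. TXNRD1 (ENSG00000198431, protein-coding) lies on GRCh38 chromosome 12, 104215779 to 104350305, plus strand, with 6708 exonic bases, none of them shared with another gene in GENCODE 29. A ribosomal protein pseudogene within its span but outside its exons, RPL18AP3, had 1917 and 526 counts of its own with LT4, against 2641, 2330 and 2052 in controls. With either LT4 library alone the value was similar, at 0.80 with LT4 replicate 1 and 0.96 with LT4 replicate 3. A fit with 1 LT4 library, here and below, takes its spread from the controls alone. Its p-values therefore leave out the spread between LT4 libraries and are not stronger evidence than those of the main fit. The authors' deposited table gives log2 fold changes of 0.82 (adjusted p = 0.000119) for LT4 replicate 1 and 0.94 (adjusted p = 6.99e-06) for LT4 replicate 3. The call needed all 3 controls. The edgeR adjusted p was 0.169 without control 1, 0.272 without control 2 and 0.302 without control 3. The log2 fold changes in these fits were 0.96, 0.83 and 0.87. Each of these fits called 1 gene over the whole table, against 19 with all controls, so the loss of calls was not particular to TXNRD1.

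TXNRD1 was the 1 member of 10 past the threshold (adjusted p under 0.05), where 0.137% of the 13833 genes tested passed it (0.123% higher and 0.0145% lower). It was also the 1 member called with LT4 replicate 1 alone, where 2.47% of genes were higher and 1.23% lower, and with LT4 replicate 3 alone, where 2.54% were higher and 1.58% lower. The same held by DESeq2 (0.891% of genes higher, 0.165% lower), limma voom (0.173% higher, 0.0289% lower), edgeR with the replicate number as a block (2.28% higher, 0.802% lower) and edgeR with a gene-length trend removed (0.217% higher, 0.0361% lower). For 5 of 10 members the groups did not overlap, against 33.9% of all genes tested. LT4 was above for 2 members, against 17.3% of genes, and below for 3 members, against 16.5%, so these counts say little about the members as a set. At an unadjusted p under 0.05 the count was 1 of 10, TXNRD1, against 13.9% of genes.

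TXNRD1 is printed with its promoter letters because it was the member that changed. RefSeq's promoter table (GRCh38.p14) holds 12 windows for 8 of the members and none for PRDX1 and PRDX6. The 250 bases before each start were searched on both strands for TGACNNNGC, the core of the antioxidant response element, for TGANTCA, an AP-1 site, and for CCAAT. Both TXNRD1 windows held TGACNNNGC once and CCAAT once, and none of the other 10 windows held either. TGANTCA was in none of the 12. Over all 35116 windows of this length in the table, 10.9% held TGACNNNGC, 32% held CCAAT and 6.57% held TGANTCA. A match describes the letters and does not show that a factor binds. Bases further from each start were not searched, so the lack of a match does not show that a gene lacks the element. SRXN1, named above as an NRF2 target, had no match in its window. The TXN window is printed for comparison. Capitals mark the motif matches, and all 3 windows read 5′ to 3′ along the gene.
TXNRD1 window 1 (chr12:104215529-104215778, plus strand): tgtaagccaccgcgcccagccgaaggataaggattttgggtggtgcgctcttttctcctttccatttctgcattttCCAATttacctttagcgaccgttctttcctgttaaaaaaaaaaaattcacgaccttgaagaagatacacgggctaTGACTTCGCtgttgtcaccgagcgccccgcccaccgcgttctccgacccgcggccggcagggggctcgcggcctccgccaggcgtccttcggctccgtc
TXNRD1 window 2 (chr12:104286782-104287031, plus strand): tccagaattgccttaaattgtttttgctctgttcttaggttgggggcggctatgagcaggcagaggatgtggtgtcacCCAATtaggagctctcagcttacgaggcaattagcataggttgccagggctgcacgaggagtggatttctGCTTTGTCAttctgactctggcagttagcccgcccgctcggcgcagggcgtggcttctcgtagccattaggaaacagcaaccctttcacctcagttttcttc
TXN window (chr9:110256508-110256757, minus strand): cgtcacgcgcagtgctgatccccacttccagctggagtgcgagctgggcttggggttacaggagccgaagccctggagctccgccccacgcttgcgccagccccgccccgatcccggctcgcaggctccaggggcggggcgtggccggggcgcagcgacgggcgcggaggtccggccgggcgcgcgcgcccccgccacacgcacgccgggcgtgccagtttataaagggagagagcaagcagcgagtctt

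In the first TXNRD1 window the antioxidant response element core ran from 99 to 91 bases before the start, on the gene strand. In the second it ran from 102 to 94 bases before the start, on the opposite strand. The CCAAT matches lay at 174 to 170 and at 172 to 168 bases before the start. The count table gives 1 value per gene, so how much of the TXNRD1 signal came from each start was not measured. GC content was 56.4% and 52.4% in the TXNRD1 windows and 73.6% in the TXN window.

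TXNRD2, the mitochondrial thioredoxin reductase (chromosome 22, 19875517 to 19941992, minus strand), had 22.6 and 28.3 CPM with LT4, against 25.2, 26.5 and 26.6 CPM in controls. The LT4 values lay on either side of all controls. Its log2 fold change was -0.08 (SE 0.17, 95% interval -0.44 to 0.29, edgeR adjusted p = 0.888), with -0.21 for LT4 replicate 1 alone and 0.12 for LT4 replicate 3 alone, so a change as large as that of TXNRD1 lay outside its interval. Within each library TXNRD1 stood at 14.3 and 12.7 TPM per 1 TPM of TXNRD2 with LT4, against 8.11, 6.42 and 6.76 in controls 1, 2 and 3. The rise of TXNRD1 enters this ratio directly.

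TXN, the thioredoxin that TXNRD1 recharges, had 77.9 and 111 CPM with LT4, against 94.1, 114 and 106 CPM in controls. The groups overlapped, with LT4 replicate 1 below all controls and LT4 replicate 3 among them. The log2 fold change was -0.17 (SE 0.17, 95% interval -0.54 to 0.20, edgeR adjusted p = 0.689), with -0.42 for LT4 replicate 1 alone (adjusted p = 0.112) and 0.08 for LT4 replicate 3 alone (adjusted p = 0.83). TXN (ENSG00000136810) lies on chromosome 9, 110243811 to 110256640, minus strand, and shares no exonic base with another gene. TXNRD1 had 50.9 and 40.1 TPM per 100 TPM of TXN with LT4, against 26.8, 18.4 and 21 in controls 1, 2 and 3. The ratios did not overlap between the groups, and the rise of TXNRD1 enters them directly.

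**Figure D2:**
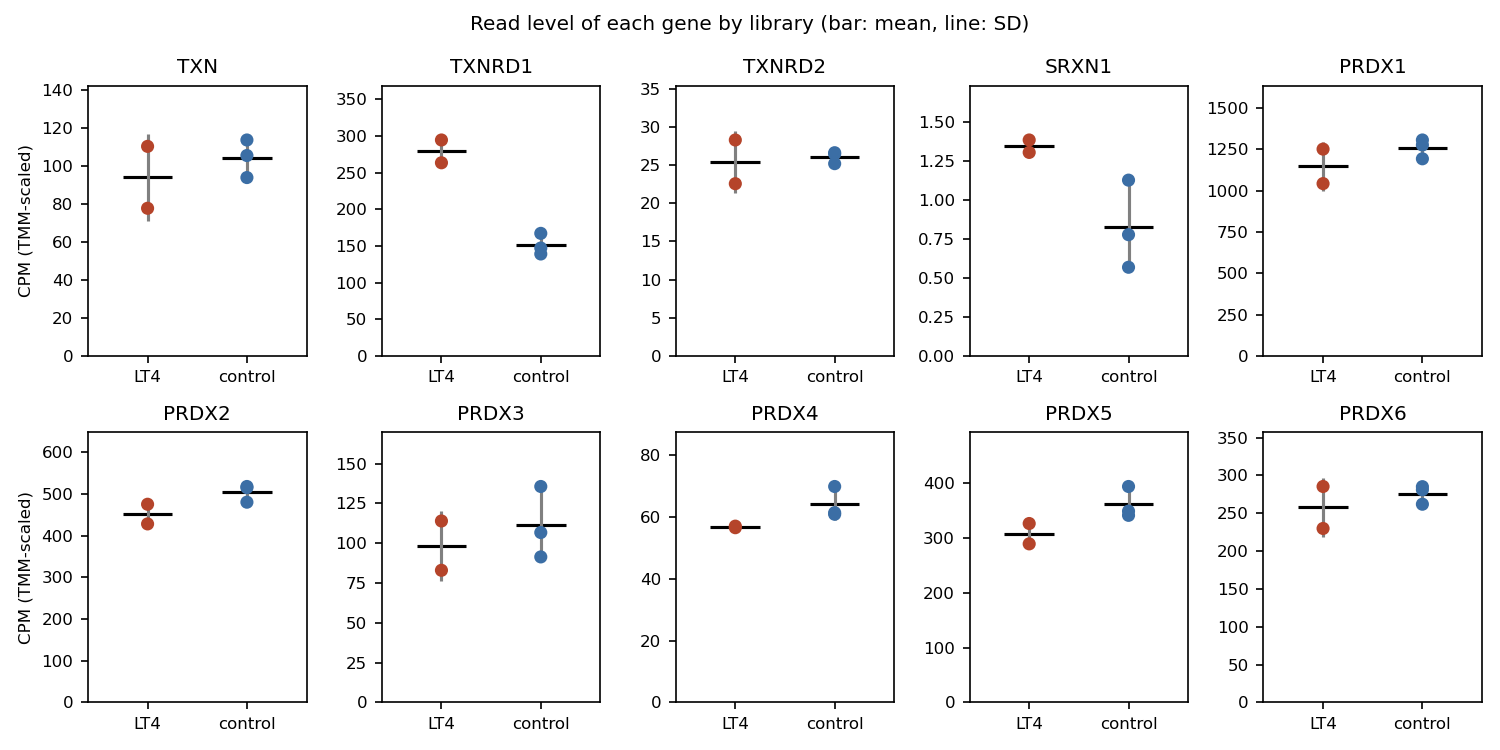
TMM-scaled CPM of each of the 10 genes by library (linear axes from 0), with LT4 left and control right, the mean as a horizontal bar and the SD as a vertical line (n = 2 and n = 3). TXNRD1 at 263 and 295 CPM with LT4 lies above its controls at 139 to 167 CPM, while the values of TXN, TXNRD2, PRDX1, PRDX3 and PRDX6 overlap between groups.

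SRXN1, sulfiredoxin, gave too few counts to be read. It had 14 and 3 counts in LT4 replicates 1 and 3, against 7, 13 and 9 counts in controls 1, 2 and 3. These make 1.39 and 1.31 CPM with LT4, against 0.569, 1.13 and 0.778 CPM in controls. The LT4 values were above every control, yet the exact Poisson 95% interval of LT4 replicate 3 ran from 0.269 to 3.81 CPM and covered all of the controls. The ratio to the controls was 1.69 for LT4 replicate 1 (exact interval 0.826 to 3.31) and 1.59 for LT4 replicate 3 (0.311 to 5.14), and both intervals cover counting error only. The fitted log2 fold change was 0.72 (SE 0.55, 95% interval -0.47 to 1.91, edgeR adjusted p = 0.59), so a difference was not detectable with so few counts. With LT4 replicate 1 alone it was 0.75, and with LT4 replicate 3 alone 0.66.

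The annotation also bears on the level of SRXN1 (ENSG00000271303, chromosome 20, 646615 to 653370, minus strand). Of its 2698 exonic bases in GENCODE 29, 2292 (85%) also lie in exons of AL121758.1, a protein-coding gene model on the same strand that spans it. AL121758.1 had 0 counts in all 5 libraries. How reads in shared exons were counted is not given in the sources used here, and the length implied by the deposited counts and TPM is 2698 bases, the whole of the exons. The SRXN1 values are therefore uncertain as levels, and its TPM rank as well. Whether the shared exons lowered its counts was not tested. Smaller shares applied to PRDX1 (24.9%, with MMACHC on the opposite strand) and PRDX2 (14.1%, with an antisense RNA). Rows named for pseudogenes of the members (18 rows, of TXN and PRDX1 to PRDX5) had at most 11 counts in any library.

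The 6 peroxiredoxin genes are protein-coding and spread over the genome: on GRCh38, PRDX1 lies on chromosome 1, 45511036 to 45523047 (minus strand), PRDX2 on chromosome 19, 12796820 to 12801859 (minus), and PRDX3 on chromosome 10, 119167703 to 119178833 (minus). PRDX4 lies on chromosome X, 23664262 to 23686399 (plus), PRDX5 on chromosome 11, 64318088 to 64321811 (plus), and PRDX6 on chromosome 1, 173477266 to 173488807 (plus). None of the 6 passed the test in either direction. All 6 had negative log2 fold changes, from -0.23 to -0.10 with a median of -0.17, while the median over all genes tested was -0.00 and 50.4% of them were negative. With LT4 replicate 1 alone all 6 were negative (median -0.27), and with LT4 replicate 3 alone 4 of 6 were (median -0.05). Neither library alone gave a call among them. For LT4 replicate 1 alone the log2 fold changes of PRDX1 to PRDX6, in order, were -0.27, -0.24, -0.42, -0.18, -0.32 and -0.26. For LT4 replicate 3 alone they were -0.01, -0.08, 0.04, -0.17, -0.15 and 0.05.

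PRDX1 and PRDX2 are cytosolic peroxiredoxins. PRDX1 had 1042 and 1251 CPM with LT4, against 1192, 1306 and 1275 CPM in controls, so the groups overlapped. Its log2 fold change was -0.13 (95% interval -0.41 to 0.14, edgeR adjusted p = 0.674). In TPM both LT4 libraries, at 1999 and 2038, lay below the controls at 2147 to 2252, so whether the groups overlap depends on the scale. PRDX2 had 428 and 476 CPM with LT4, against 481, 515 and 518 CPM in controls, with LT4 replicate 3 close to the lowest control. Its log2 fold change was -0.16 (95% interval -0.44 to 0.12, adjusted p = 0.606).

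PRDX3 and PRDX5 work in mitochondria, and PRDX5 also in peroxisomes and the cytosol. PRDX3 had 83 and 114 CPM with LT4, against 107, 91.4 and 136 CPM in controls. It varied more between controls than any other peroxiredoxin, with a coefficient of variation of 20.2% against 4.16% to 7.88% for the other 5. It differed by -0.19 on the log2 scale (SE 0.19, edgeR adjusted p = 0.686). PRDX5 had 289.6 and 327 CPM with LT4, against 342, 349 and 394 CPM in controls, with every control above both LT4 libraries. That difference (-0.23, SE 0.14, 95% interval -0.53 to 0.06, adjusted p = 0.468) was the lowest value and the smallest p among the peroxiredoxins.

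PRDX4, the peroxiredoxin of the endoplasmic reticulum, had 56.5 and 57 CPM with LT4, against 60.8, 69.8 and 61.4 CPM in controls. Both LT4 values were below every control, and the log2 fold change was -0.17 (SE 0.14, adjusted p = 0.62). PRDX6, which draws on glutathione rather than thioredoxin and also acts on phospholipids, had 229.9 and 285 CPM with LT4, against 262, 285 and 281 CPM in controls. The groups overlapped (-0.10, SE 0.14, adjusted p = 0.782). Intervals for the 6 genes reached no lower than -0.61 and no higher than 0.22, so a rise of the size measured for TXNRD1 lay outside each of them.

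**Figure D3:**
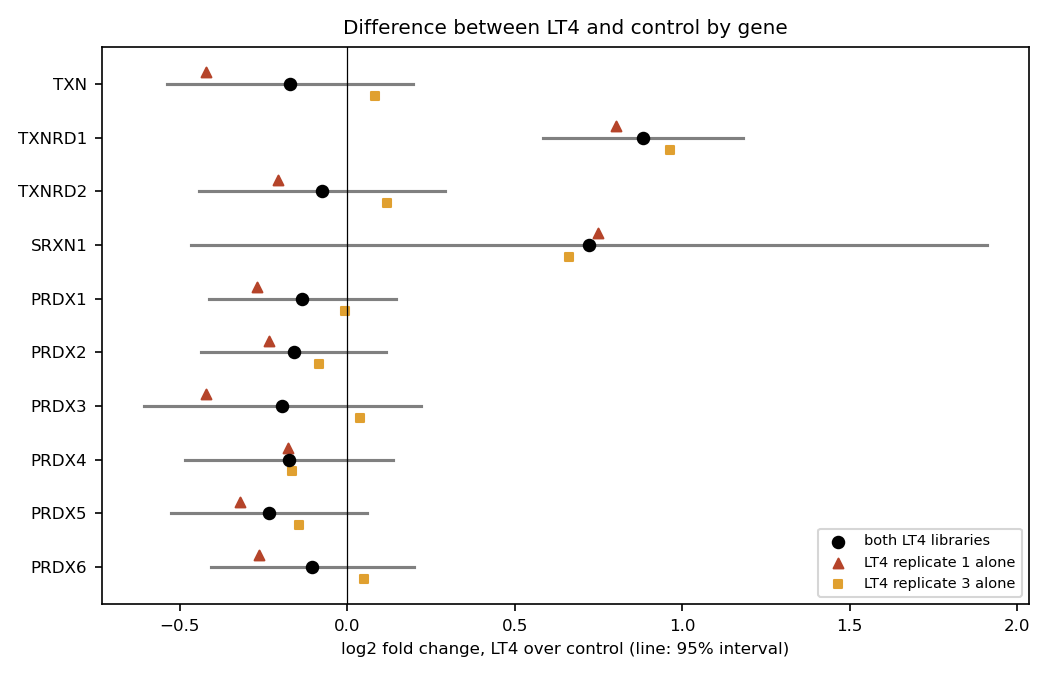
Log2 fold change of LT4 over control for each of the 10 genes, with the 95% interval as a line and the value with each LT4 library alone as triangles and squares. TXNRD1 at 0.88 is the only gene whose interval leaves out 0, the interval of SRXN1 runs from -0.47 to 1.91, and the triangles (LT4 replicate 1) of TXN, TXNRD2, PRDX3 and PRDX6 are below 0 while their squares (LT4 replicate 3) are above it.

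The share of each gene in the peroxiredoxin pool overlapped between the groups. Of the summed TPM of the 6 genes, PRDX1 made 49.7% and 50.9% with LT4, against 48.3% to 50.6% in controls. PRDX5 made 24.1% and 23.3% with LT4, against 23.7% to 26.1% in controls, and PRDX3 made 1.76% and 2.07% with LT4, against 1.58% to 2.29% in controls. The summed level was 4024 and 4003 TPM with LT4, against 4346, 4452 and 4503 TPM in controls. That separation depends on the scale, since the summed TMM-scaled CPM were 2129.5 and 2509 with LT4, against 2444, 2617 and 2666 in controls, and overlapped. Set against TXNRD1, the sum was 35.5 and 37.2 TPM per 1 TPM of TXNRD1 with LT4, against 64.4, 82.8 and 80.1 in controls. This ratio, too, holds the rise of TXNRD1 and is not a separate result.

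**Figure D4:**
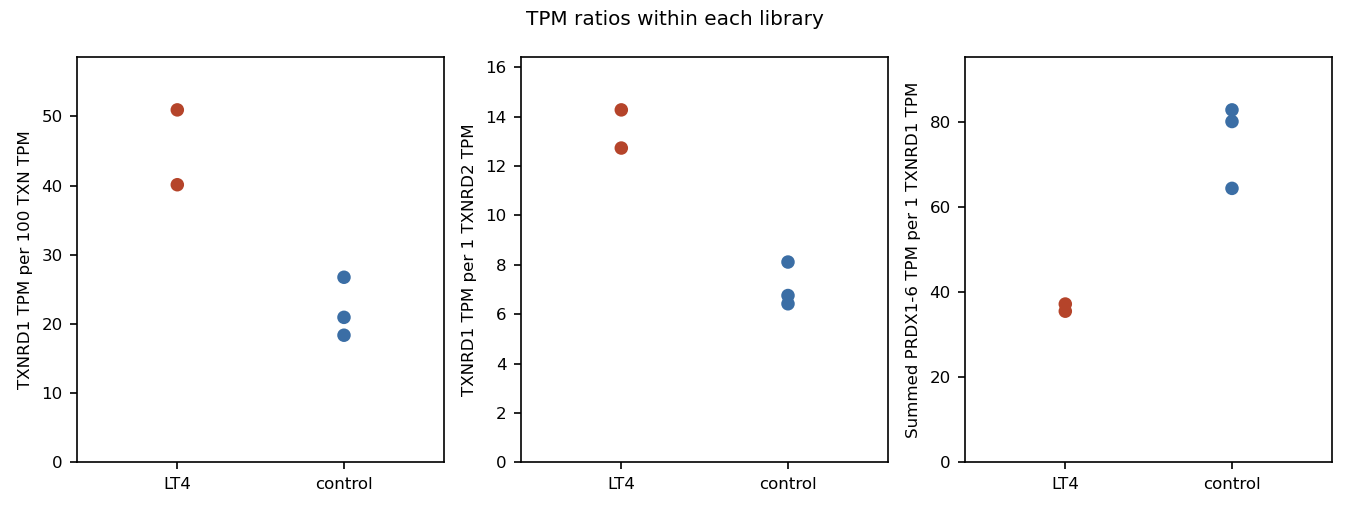
TPM ratios within each library (linear axes from 0), with LT4 left and control right and 1 point per library. TXNRD1 enters each of these ratios. TXNRD1 per 100 TXN is 50.9 and 40.1 with LT4, against 18.4 to 26.8 in controls, TXNRD1 per 1 TXNRD2 is 14.3 and 12.7 with LT4, against 6.42 to 8.11 in controls, and the summed peroxiredoxins per 1 TXNRD1 are 35.5 and 37.2 with LT4, against 64.4 to 82.8 in controls.

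Gene length moved with the libraries. Relative to the mean of the 5 libraries, log2 CPM changed by 0.10 and 0.01 per doubling of gene length in LT4 replicates 1 and 3, and by 0.02, -0.06 and -0.06 in controls 1, 2 and 3. TXNRD1 has 6708 exonic bases, while TXN and the peroxiredoxins have 893 to 3417. With this trend removed, TXNRD1 was at 0.80 (edgeR adjusted p = 0.0237), and the median of the 6 peroxiredoxins was -0.04, with PRDX6 at 0.01.

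The genes whose profile over the 5 libraries was most like that of TXNRD1 were WDR36, MTR and HMGXB4, with Pearson r of 0.997, 0.996 and 0.995 among the 6724 genes whose log2 CPM averaged 4 or more. With 5 libraries such values describe only how the values of the libraries are spaced relative to each other. WDR36, which takes part in ribosome assembly, had 21.9 and 23.5 CPM with LT4, against 14.8, 12.2 and 13.6 CPM in controls (log2 fold change 0.73, adjusted p = 0.117). MTR, methionine synthase, had 0.49 (adjusted p = 0.252) and HMGXB4 0.39 (adjusted p = 0.328).

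Related genes were taken from 5 lists of 74 genes, of which 73 had a row and 67 passed the count filter. Of these 67, edgeR called SLC7A11 higher and 0 lower, while at an unadjusted p under 0.05 there were 15 higher and 1 lower (8.58% higher and 5.28% lower over all genes tested), 12 of the 15 from the NRF2 list. DESeq2 and limma voom also called 1 each. The median log2 fold change of these 67 was 0.06.

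Partners of thioredoxin, which include the mitochondrial TXN2, the third reductase TXNRD3 and the glutaredoxins, had no call among 11 tested genes (unadjusted p under 0.05 in 0 higher and 0 lower; median -0.10). TXNDC17, a small disulfide reductase that TXNRD1 also recharges, had the smallest p, with a log2 fold change of -0.38 (edgeR adjusted p = 0.362), with -0.59 for LT4 replicate 1 alone (adjusted p = 0.0393) and -0.13 for LT4 replicate 3 alone (adjusted p = 0.762). NXN, nucleoredoxin, had -0.19 (adjusted p = 0.547) and TXNDC12, a thioredoxin-like protein of the endoplasmic reticulum, 0.33 (adjusted p = 0.565), with 48.3% of its exonic bases shared with another gene model on its strand. TXNIP, the inhibitor of thioredoxin, was too scarce to be tested, with 1 and 0 counts with LT4, against 0, 6 and 7 in controls. In LT4 replicate 3 a count of 0 allows up to 1.31 CPM, for counting error only.

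The list of clients and repair enzymes held ribonucleotide reductase, which thioredoxin recharges, and the methionine sulfoxide reductases. It also held the sestrins and the PAPSS genes, whose use of thioredoxin was not tested. There was no call among its 13 tested genes (unadjusted p under 0.05 in 1 higher and 0 lower, median 0.06). That gene was SESN2, a stress-induced sestrin, at 0.62 (adjusted p = 0.117), with 0.72 for LT4 replicate 1 alone (adjusted p = 0.00703) and 0.46 for LT4 replicate 3 alone (adjusted p = 0.228). PAPSS2, which makes the sulfate donor PAPS, had -0.42 (adjusted p = 0.454), and RRM2, the small subunit of ribonucleotide reductase, 0.21 (adjusted p = 0.475), with 20.2% of its exonic bases shared with another gene model on its strand.

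Other peroxide and superoxide enzymes had no call among 8 tested genes of 12 with a row (unadjusted p under 0.05 in 1 higher and 0 lower; median -0.11). GPX8, a glutathione peroxidase-like protein of the endoplasmic reticulum, had 0.43 (adjusted p = 0.321). GPX4, which reduces lipid peroxides, had -0.17 (adjusted p = 0.594). GPX2 was scarce, with 8 and 0 counts with LT4, against 18, 15 and 12 in controls, and was not called (adjusted p = 0.501). Genes for making selenoproteins, the class to which both reductases belong, had no call among 9 (unadjusted p under 0.05 in 1 higher and 0 lower; median 0.02). SECISBP2L, a relative of the factor that reads the selenocysteine signal, had 0.79 (adjusted p = 0.183). PSTK and SEPHS2, enzymes of selenocysteine synthesis, had -0.22 (adjusted p = 0.844) and 0.07 (adjusted p = 0.873).

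NRF2 regulators and targets had 1 call among 27 tested genes, SLC7A11, the cystine importer, at 1.51 (SE 0.25, edgeR adjusted p = 0.0368). It had 287 and 51 counts with LT4, against 139, 67 and 118 in controls, which make 28.4 and 22.2 CPM with LT4, against 11.3, 5.81 and 10.2 CPM in controls. With LT4 replicate 1 alone it was 1.64 (adjusted p = 0.000194) and with LT4 replicate 3 alone 1.28 (adjusted p = 0.0277). SLC7A11 was also called by DESeq2 (1.49, adjusted p = 0.000303), by limma voom (1.59, adjusted p = 0.0229) and with the length trend removed (1.35, adjusted p = 0.0203). The call did not hold with library totals only (1.55, adjusted p = 0.0558), with at least 50 counts in at least 2 libraries (1.51, adjusted p = 0.0657), at equal depth (1.29, adjusted p = 0.0756), or without any 1 control (1.27 to 1.69, adjusted p 0.112 to 0.199). With an unadjusted p under 0.05 the list had 12 genes higher and 1 lower, against 8.58% higher and 5.28% lower of all genes tested. For 13 of its 27 genes LT4 was above every control, against 17.3% of all genes tested. These counts mix regulators with targets. The higher genes included the regulators BACH1 (1.23, edgeR adjusted p = 0.117) and CUL3 (0.47, adjusted p = 0.331). They also included GCLM (0.70), GCLC (0.52), ME1 (0.45), OSGIN1 (0.41), UGDH (0.39), HMOX1 (0.37) and SQSTM1 (0.36), none with an adjusted p under 0.05. The lower gene was TALDO1 (-0.32, adjusted p = 0.341). For LT4 replicates 1 and 3 alone BACH1 was at 0.95 and 1.65, CUL3 at 0.20 and 0.80, and SQSTM1 at 0.46 and 0.26. The list was chosen with earlier results of these data known. Its median was 0.30, with 0.21 for LT4 replicate 1 alone and 0.26 for LT4 replicate 3 alone. ABCC3, an export pump, had 0.70 (adjusted p = 0.104) and MAFG, a small MAF partner of NRF2, 0.63 (adjusted p = 0.116). ABCC3 was at 0.71 for LT4 replicate 1 alone (adjusted p = 0.0104) and 0.69 for LT4 replicate 3 alone (adjusted p = 0.0543). MAFG was at 0.80 for LT4 replicate 1 alone (adjusted p = 0.00047) and 0.39 for LT4 replicate 3 alone (adjusted p = 0.209). NFE2L2, which encodes NRF2, had 0.05 (95% interval -0.26 to 0.37, with 17.6% of its exonic bases shared with another gene model) and KEAP1, its inhibitor, -0.16 (95% interval -0.48 to 0.16).

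**Figure D5:**
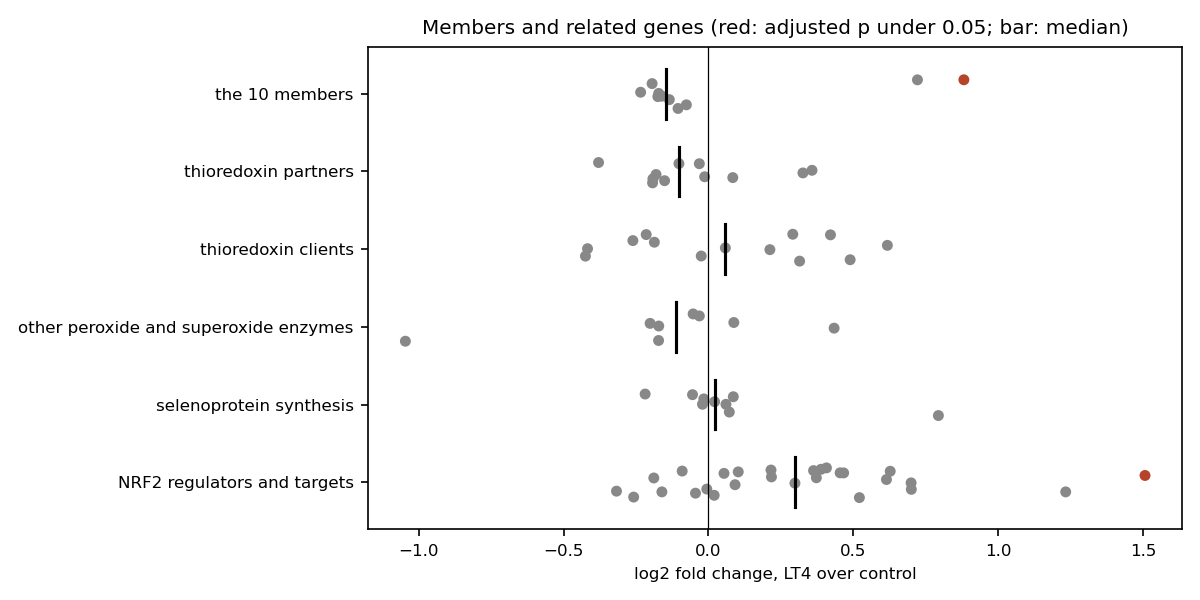
Log2 fold change of LT4 over control for the 10 members and for the tested genes of 5 related lists, 1 point per gene, with the median of each as a bar and red points for an adjusted p under 0.05. The red points are TXNRD1 at 0.88 and SLC7A11 at 1.51, and the medians lie between -0.15 and 0.30.

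In the authors' deposited table TXNRD1 was the only one of the 10 members with an adjusted p under 0.05, in both LT4 comparisons, where 4.44% of genes were higher and 1.65% lower for LT4 replicate 1 and 3.31% higher and 1.53% lower for LT4 replicate 3. That table gives TXN -0.41 (adjusted p = 0.168) for LT4 replicate 1 and 0.06 (adjusted p = 0.932) for LT4 replicate 3. These comparisons share the controls.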

How the data were processed

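RNA of 5 HCT116 libraries was extracted with TRIzol and prepared with a stranded TruSeq mRNA kit, per the labels' protocols. The submitters' processing notes name fastp 0.20.0, HISAT2 2.1.0, SAMtools 1.9, featureCounts, Subread 2.0.1 and GRCh38, in no stated order. Annotation release, strand setting and handling of overlapping genes: not given in the sources used here. Per the file headers, the deposited table holds raw counts per gene and the authors' TPM, which sum to 1000000 in each library. It also holds the authors' log2 fold changes with p-values, raw and adjusted, for each LT4 library; what test made them is not stated. Unused were 2 per-sample columns and 3 comparison columns that match no sample here.

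Sample titles set the groups. The main test was edgeR 4.0.16 in R 4.3.3 (quasi-likelihood F test on counts, edgeR's expression filter, TMM, robust dispersion, no covariate), adjusted by Benjamini-Hochberg across 13833 genes at 0.05, with a biological coefficient of variation of 14.6%. The SE is |log2 fold change|/√F, and 95% intervals use the degrees of freedom of that test. A lone LT4 library was taken to vary as the controls do. DESeq2 1.42.0 and limma 3.58.1 served as alternatives, beside other scalings, filters, equal depth, a replicate block, a length trend (loess on length from count per TPM) and each library left out. The code was tested on simulated counts. Figures were drawn with matplotlib 3.10.9.

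Members, the 5 related lists and the tests were chosen with earlier results of these data known. Genes named are all 10 members; in each related list those past the threshold and the 3 of smallest p; NFE2L2 and KEAP1; and the 3 genes most like the member of smallest p. Others (TXNIP, TXN2, TXNRD3, BACH1, CUL3, GCLM, GCLC, ME1, OSGIN1, UGDH, HMOX1, SQSTM1, TALDO1) were chosen after their values were seen. GLRX5 is in 2 lists, and 1 listed gene is not analysed here.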

Additional observations from a re-analysis of the deposited data

How the results depend on the processing

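TXNRD1 had a positive log2 fold change in all 14 alternatives, from 0.80 to 0.96, and passed in 11; the exceptions were the 3 fits without a control, and the cause was not tested. Members called stayed at 1 in those 11 and ranged from 0 to 1 with 1 library left out. Genes called over the whole table were 19, against 311 with no count filter, 427 with the replicate block, 115 by DESeq2 and 35 with the gene-length trend removed, and 1 to 598 with 1 library left out. Related genes called were 1, against 0 with library totals only, 0 with at least 50 counts in at least 2 libraries, 0 at equal depth, 4 with no count filter and 6 with the replicate block, and 0 to 6 with 1 library left out; the cause of these moves was not tested. TXN, TXNRD2, PRDX3 and PRDX6 changed sign without LT4 replicate 1, and PRDX6 also with the length trend removed, none of them called. SRXN1 gave no adjusted p with at least 50 counts in at least 2 libraries, by DESeq2 or at equal depth.

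The titles give replicate numbers 1 and 3 to both groups, but no label says that a number marks a shared batch. Deviations from the group mean correlated across genes at 0.207 for LT4 replicate 1 with control 1 and at 0.212 for LT4 replicate 3 with control 3. With 2 LT4 libraries their deviations are equal and opposite. LT4 replicate 3 with control 1 was therefore at -0.207 and LT4 replicate 1 with control 3 at -0.212. The same-number values are thus not separate observations, and they cannot show a shared batch. With the replicate block TXNRD1 had 0.82 (edgeR adjusted p = 2.93e-06), and SESN2 (0.65, adjusted p = 0.0113), ABCC3 (0.76, 0.00115) and MAFG (0.63, 0.0054) passed. In that fit control 2 has no LT4 library of its number, so the difference rests on 2 pairs that no label states. ABCC3 (0.0168) and MAFG (0.0349) also passed with no count filter. Low counts limit SRXN1, TXNIP and GPX2, with 3, 0 and 0 counts in LT4 replicate 3, among others. With 2 LT4 and 3 control libraries, no search for outlying libraries was made.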

Other observations

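Besides SRXN1, a pair of thioredoxin-fold genes share many exonic bases with a gene model on the same strand that was at 0. TXNDC5, a thioredoxin-fold disulfide isomerase chosen here after its values were seen, had 8 and 2 counts with LT4, against 6, 10 and 8 in controls. Of its 4387 exonic bases in GENCODE 29, 60.6% lie in exons of BLOC1S5-TXNDC5, which had 0 counts in all 5 libraries. TXNDC12 had 90 and 20 counts with LT4, against 99, 73 and 78 in controls, and shares 48.3% of its exonic bases with AL445685.3, also at 0 counts in all 5 libraries. With SRXN1 at 85%, these are the genes with the largest shares on the same strand among the members, the related lists and TXNDC5. The part of this overlap in the counts was not tested.

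NNT, the mitochondrial transhydrogenase that makes NADPH, had 0 and 1 counts with LT4, against 0, 2 and 0 in controls, and was not tested. It was chosen here after its values were seen.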
